A study of Homo sapiens with 32 samples.

Results

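The 9 genes described here encode secreted chemokines: CXCL1, CXCL2, CXCL3, CXCL5, CXCL6 and CXCL8 of the CXC class, and CCL2, CCL5 and CCL20 of the CC class. They were taken by name from the 60728 genes of a table of read counts, and all 9 were found there. Polyadenylated RNA had been sequenced from A549, a human lung adenocarcinoma line, and SK-MEL-147, a human melanoma line. Both lines were collected on day 7 after 1 of 3 drugs or without a drug, in 8 groups of 4 libraries.

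Doxorubicin, a topoisomerase poison that breaks DNA, was used at 100 nM on both lines. Palbociclib, an inhibitor of the kinases that cyclin D activates, was used at 5 uM on A549 and at 1 uM on SK-MEL-147. INK128, an inhibitor of the growth kinase mTOR, was used at 200 nM on A549 and at 100 nM on SK-MEL-147. Doxorubicin and palbociclib were taken off after 72 h, whereas INK128 was renewed whenever the medium was replaced, every 3 days. The submitters' text calls the state after doxorubicin or palbociclib senescence, a stable exit from the cell cycle, and the state under INK128 diapause-like. Untreated cells of the same line were the control. That text names SK-Mel-103 for INK128, but the sample labels name SK-MEL-147 throughout.

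Chemokines are small secreted proteins that draw leukocytes along a gradient, and senescent cells are known to secrete many of them as part of a wider secretory programme. The CXC members of this set act on neutrophils through CXCR1 and CXCR2. CCL2 draws monocytes through CCR2, CCL5 draws T cells and monocytes, and CCL20 draws cells with CCR6. In many cell types the inflammatory transcription factors NF-kB, C/EBP and AP-1 switch these genes on, often downstream of interleukin 1.

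The 6 CXC genes lie together on chromosome 4, CCL2 and CCL5 on chromosome 17 and CCL20 on chromosome 2. RefSeq promoters (GRCh38.p14) were found for 7 of the 9 genes, all but CCL2 and CCL5. The stretches from 110 to 11 bases before each start site are shown because they hold the sequence that most of these promoters share. Capitals mark the matches to GGAATTTCC or GGGAAAACC, written forms of the site that NF-kB proteins bind.
CXCL8 (chr4:73740459-73740558, plus strand): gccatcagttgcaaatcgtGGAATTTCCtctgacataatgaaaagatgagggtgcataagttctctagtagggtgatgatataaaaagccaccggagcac
CXCL1 (chr4:73869283-73869382, plus strand): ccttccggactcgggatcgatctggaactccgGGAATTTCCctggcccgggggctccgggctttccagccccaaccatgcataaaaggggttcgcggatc
CXCL2 (chr4:74099206-74099305, minus strand): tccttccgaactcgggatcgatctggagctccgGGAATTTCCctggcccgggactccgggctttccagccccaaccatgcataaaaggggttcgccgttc
CXCL3 (chr4:74038700-74038799, minus strand): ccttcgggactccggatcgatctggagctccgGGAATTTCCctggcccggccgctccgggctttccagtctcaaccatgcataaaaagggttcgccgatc
CXCL5 (chr4:73998688-73998787, minus strand): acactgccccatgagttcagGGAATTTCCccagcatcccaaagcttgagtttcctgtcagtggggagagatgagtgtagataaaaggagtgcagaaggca
CXCL6 (chr4:73836568-73836667, plus strand): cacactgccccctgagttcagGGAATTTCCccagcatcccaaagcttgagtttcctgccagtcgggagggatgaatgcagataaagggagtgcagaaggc
CCL20 (chr2:227813732-227813831, plus strand): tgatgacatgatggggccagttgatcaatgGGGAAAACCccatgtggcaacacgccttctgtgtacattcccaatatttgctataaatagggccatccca

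The letters GGAATTTCC stood in 6 of the 7 promoters, and in 0.413% of 35116 RefSeq promoters over the 250 bases before the start, on either strand. CCL20 held GGGAAAACC in a like place, which 0.393% of the promoters held, and no matches overlapped one another. The AP-1 motif TGANTCA, with N for any base, was present in 1 of the 7 promoters, that of CXCL8, and in 6.57% of all. TATAAA was present in CXCL8 and CCL20 and in 10.7% of all promoters. The stretches of CXCL1 and CXCL2 were identical at 94 of 99 aligned bases, and those of CXCL5 and CXCL6 at 92 of 99. That of CXCL3 was identical to CXCL1 at 91 of 100 and to CXCL2 at 90 of 99. The 6 promoters with GGAATTTCC are thus not independent of one another, and GGGAAAACC was present in CCL20 alone of the 7. Both are exact strings that these promoters hold, so the shares of all promoters describe how rare they are and test no enrichment. A match to these letters does not show that a factor was bound in these cells.

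The libraries held 28150560 to 33331334 counts (A549) and 17929732 to 32407057 counts (SK-MEL-147). In A549 the titles of a group end in 1, 2, 2-2 and 3, and since 2 and 2-2 carry the same replicate number, their counts were added for the tests (n = 3 for A549, n = 4 for SK-MEL-147). Over all genes tested, the SD of the log2 ratio between 2 and 2-2 was 0.566 to 0.693 in the 4 groups, larger than the 0.318 to 0.346 between 2-2 and 3. Whether replicates were separate cultures is not stated, and p-values measure the spread between these samples alone. The A549 libraries titled 2 stood apart for these genes. The 9 chemokines summed there to 707, 711, 81.0 and 381.5 CPM (counts-per-million units) with doxorubicin, palbociclib, INK128 and no drug, against 3817 to 5506, 3057 to 5801, 1032 to 1065 and 516 to 747 CPM in the other 3 libraries of each group. Results for this line are therefore given with and without them. Replicate 1 had the highest chemokine sum after doxorubicin and palbociclib, and also the largest share of mitochondrial counts (18.3% and 17.3%), against 5.975 to 14.8% in the other 14 A549 libraries.

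Marker sums set the lines apart. Over the libraries 10 epithelial genes summed to 147 to 199.8 CPM in melanoma cells and 4149 to 14900 CPM in lung cells, and 10 melanocyte genes to 183 to 635 and 17.2 to 45.9 CPM, of which MLANA and TYR were at or near 0 in both lines. Of 12 leukocyte markers 2, CD14 and ITGAM, reached 1 CPM in A549 groups and none in SK-MEL-147 groups, while MS4A1 stood at 0 in all. Not every marker followed the sums: MITF averaged 4.95 to 11.1 CPM over the groups of SK-MEL-147 and 17.96 to 35.6 CPM over those of A549, PMEL 0.2298 to 0.7085 and 0.957 to 1.34 CPM, and the epithelial gene CLDN4 75.7 to 98.4 and 1.88 to 10.9 CPM. SOX10 made up most of the melanocyte sum of SK-MEL-147, and the epithelial sum of A549 was 4149 to 5104 CPM with INK128 and 8120 to 11930 CPM without a drug.

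**Figure D1:**
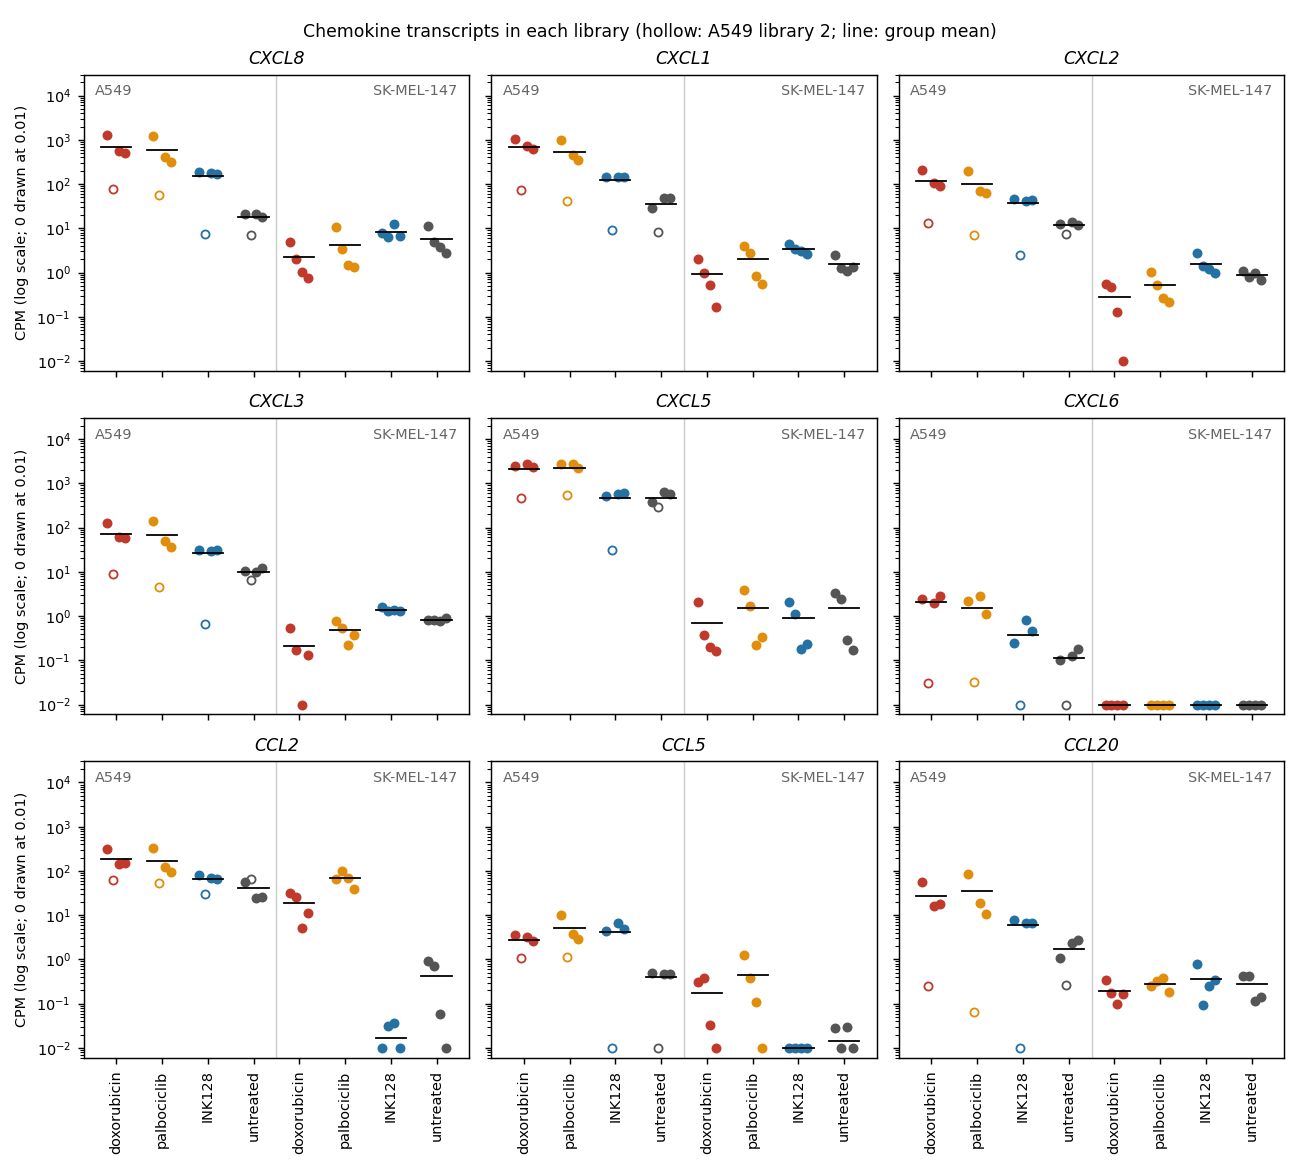
Levels of the 9 chemokine transcripts in every library, in CPM on a log axis with 0 drawn at 0.01; each point is 1 library, hollow points are the A549 libraries titled 2, and lines are group means. In A549 the group means after doxorubicin and palbociclib lie above those of untreated cells for every gene, while in SK-MEL-147 every library of both groups lies above every untreated one for CCL2 (means 18.55 and 68.3 against 0.428 CPM).

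All 9 chemokine genes were higher in A549 cells after doxorubicin than in untreated A549 cells, led by the neutrophil chemokines CXCL8 and CXCL1. Tests were edgeR's quasi-likelihood F tests over all genes, and a gene was called where the Benjamini-Hochberg adjusted p was under 0.05. Values in parentheses after a gene are its log2 fold change with SE and adjusted p. Of all 19550 genes tested, 22.4% were called higher and 20.9% lower. The median log2 fold change was 3.36 over the 9 genes and 0.00 over all genes. In bulk RNA, more cells that express a gene and more transcript per cell cannot be told apart. Leukocyte markers summed to 4.80 to 35.2 CPM with doxorubicin and 5.72 to 11.2 CPM without, mostly CD14 (16.7 and 4.86 CPM on average). ITGAM went the other way, at 3.23 and 3.86 CPM, and PTPRC, the pan-leukocyte marker, stood at 0.154 and 0.0222 CPM. Fibroblast markers summed to 30.1 to 45.1 and 6.90 to 25.2 CPM. The part of these markers in the result was not tested.

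CXCL8, the classical neutrophil attractant once named interleukin 8, had 1257, 75.6, 555 and 501 CPM in the doxorubicin libraries 1, 2, 2-2 and 3, against 20.6, 7.00, 20.9 and 18.5 CPM in the untreated ones. All doxorubicin libraries, the low library 2 among them, lay above all untreated ones. With 2 and 2-2 added CXCL8 averaged 691 ± 499 CPM with doxorubicin and 17.7 ± 3.34 CPM in untreated cells (SD, n = 3), a log2 fold change of 5.295 ± 0.76 (SE; adjusted p = 0.000217). CXCL1, a ligand of CXCR2, had 1039, 74.7, 713 and 615 CPM with doxorubicin and 28.3, 8.21, 47.7 and 47.9 CPM without, and again no doxorubicin library fell among the untreated ones (4.30 ± 0.585, adjusted p = 0.000157).

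The close relatives CXCL2 and CXCL3 rose too. CXCL2 stood at 207, 12.9, 107 and 90.4 CPM with doxorubicin and 12.5, 7.39, 13.6 and 11.9 CPM in untreated cells (3.36 ± 0.64, adjusted p = 0.00145). CXCL3 stood at 126.5, 8.82, 61.2 and 57.8 CPM with doxorubicin and 10.2, 6.57, 9.98 and 11.95 CPM in untreated cells (2.86 ± 0.65, adjusted p = 0.00416). For both genes library 2 of the doxorubicin group lay within the range of the untreated libraries. The transcripts are partly alike, so that reads could be split between them: 5.73% of the 50-base stretches of CXCL1 also occur in CXCL2.

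CXCL5, another CXCR2 ligand, was the most abundant of the set in every A549 group, also per length. It had 2505, 469.7, 2711 and 2379 CPM with doxorubicin and 387.5, 287, 627 and 571 CPM in untreated cells (2.19 ± 0.295, adjusted p = 0.000147). Library 2 of the doxorubicin group was again among the untreated values. CXCL6, which acts through CXCR1 and CXCR2, was the scarcest CXC member, with 2.43, 0.0314, 1.96 and 2.82 CPM with doxorubicin and 0.09998, 0, 0.127 and 0.177 CPM in untreated cells (4.245 ± 0.54, adjusted p = 0.0001). It passed the filter on low counts through the drug groups, since the untreated libraries held 12 counts together, and it overlaps the pseudogene PPBPP1 on the same strand.

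Among the CC members, CCL2 had 310.3, 63.8, 147 and 151.5 CPM with doxorubicin and 55.0, 65.2, 24.4 and 25.85 CPM in untreated cells (2.18 ± 0.555, adjusted p = 0.00799). Here the untreated library 2 was the highest of its group, and library 2 gave a ratio of 0.978 while the other 3 gave 5.65 to 6.03. CCL5 had 3.52, 1.07, 3.23 and 2.60 CPM with doxorubicin and 0.4999, 0, 0.477 and 0.461 CPM without (2.82 ± 0.57, adjusted p = 0.00203), with no overlap. CCL20 had 55.5, 0.251, 15.85 and 18.2 CPM with doxorubicin and 1.07, 0.262, 2.32 and 2.73 CPM without (4.03 ± 1.006, adjusted p = 0.00717). Its ratio was 52.1 in replicate 1, 6.83 and 6.66 in libraries 2-2 and 3 and 0.9595 in library 2.

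With the libraries titled 2 left out, all 9 genes were still called higher with doxorubicin (log2 fold changes 2.27 to 5.29), as with replicate 1 left out of every group (1.865 to 4.67). With 2-2 left out instead, 2 genes were called, CXCL1 and CXCL8, and the other 7 had adjusted p of 0.0571 to 0.122. Without replicate 1 of the doxorubicin group alone, the log2 fold change was 2.69 for CXCL2, 2.19 for CXCL3, 4.53 for CXCL8 and 2.96 for CCL20, each still called.

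**Figure D2:**
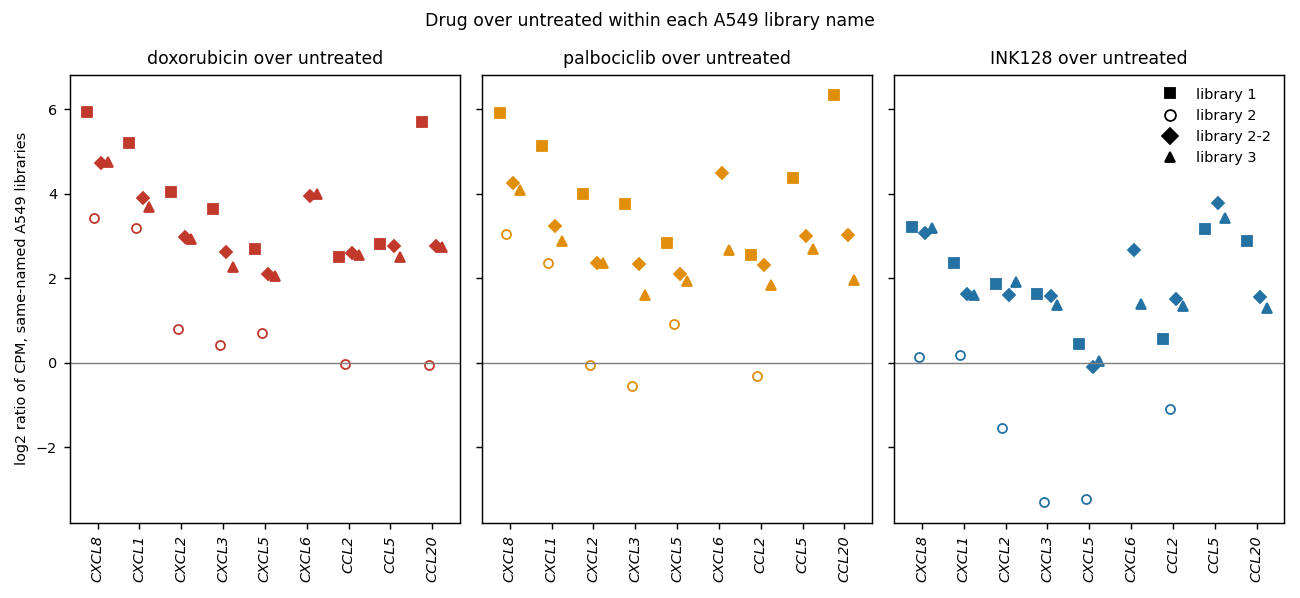
Log2 ratio of CPM between a drug library and the untreated library of the same title in A549, for each gene with more than 3 counts in both; each mark is 1 library and hollow circles are the libraries titled 2. With doxorubicin the hollow circles lie lowest for every gene that has one, at a ratio of 0.978 for CCL2 and 10.8 for CXCL8.

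Palbociclib likewise raised all 9 genes in A549, where 22.2% of all genes were called higher and 21.1% lower. The median log2 fold change of the 9 was 3.75, and 0.02 over all genes. CXCL8 had 1251, 57.7, 402 and 313 CPM in libraries 1, 2, 2-2 and 3 with palbociclib, against 17.7 ± 3.34 CPM in untreated cells (5.07 ± 0.75, adjusted p = 0.00026). CXCL1 had 999.5, 42.4, 449 and 353 CPM, against 34.8 ± 11.35 CPM (3.93 ± 0.575, adjusted p = 0.000248). CXCL5 had 2789, 545, 2673 and 2186 CPM, against 473 ± 92.5 CPM (2.20 ± 0.295, adjusted p = 0.000134). Replicate 1 was the highest of the palbociclib libraries for all of these.

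CXCL2 and CXCL3 rose with palbociclib (3.09 ± 0.63, adjusted p = 0.00229 and 2.73 ± 0.64, adjusted p = 0.00524), as did CXCL6 (3.84 ± 0.54, adjusted p = 0.000185). CCL5 had 10.3, 1.15, 3.82 and 2.97 CPM with palbociclib, and all 4 libraries lay above the untreated ones (3.75 ± 0.57, adjusted p = 0.000336). CCL20 had 86.5, 0.06395, 18.8 and 10.7 CPM (4.40 ± 1.02, adjusted p = 0.00463), so that its library 2 was below all untreated ones. CCL2 had 323, 52.5, 120.5 and 92.9 CPM (1.99 ± 0.55, adjusted p = 0.0124). Leukocyte markers summed to 3.805 to 22.3 CPM and fibroblast markers to 27.8 to 46.7 CPM with palbociclib, and their part in the result was not tested.

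Replicate 1 of the palbociclib group set the size of several of these values. Leaving it out gave 3.925 for CXCL8, 3.09 for CXCL1, 2.08 for CXCL2, 1.63 for CXCL3, 2.81 for CCL5 and 2.56 for CCL20, all still called. CCL2 then had 1.09 (adjusted p = 0.0603), and without untreated replicate 3 it had 1.75 (adjusted p = 0.0518). All 9 genes were called without the libraries titled 2, and 3 (CXCL1, CXCL8 and CCL5) without 2-2. With the replicate number as a block, CCL20 had 3.64 and stayed called.

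No chemokine was called between palbociclib and doxorubicin in A549, where edgeR called 0.0% of 19550 genes, 869 had an unadjusted p under 0.05 and DESeq2 called 31. None of the 9 was under 0.05 before adjustment or called by DESeq2. The log2 differences ran from -0.41 ± 0.42 for CXCL6 to 0.92 ± 0.49 for CCL5. Without the libraries titled 2, 0 of the 9 were called.

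INK128 also raised chemokines in A549. CXCL8, CXCL1, CXCL2, CXCL6 and CCL5 were called higher than in untreated cells, 5 of 9, where 20.5% of all genes were called higher and 19.7% lower. The median log2 fold change was 1.85 over the 9 genes and 0.01 over all. CXCL6 passed the filter on low counts through the doxorubicin and palbociclib groups. With the INK128 and untreated groups fitted alone, 8 members were tested, without CXCL6, and 6 were called. CXCL8 had 191, 7.63, 176 and 169 CPM in libraries 1, 2, 2-2 and 3 with INK128, against 20.6, 7.00, 20.9 and 18.5 CPM in untreated cells (3.13 ± 0.69, adjusted p = 0.00424). Libraries 1, 2-2 and 3 gave ratios of 8.42 to 9.26, and library 2 gave 1.09. Leukocyte markers summed to 9.59 to 21.1 CPM and fibroblast markers to 9.62 to 13.03 CPM with INK128. Mitochondrial counts were 11.5 to 14.8% of all with INK128 and 5.975 to 8.42% in untreated cells, with no overlap. The part of these in the result was not tested.

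CCL5, the T cell attractant, had 4.47, 0, 6.60 and 4.93 CPM with INK128 (3.49 ± 0.57 over untreated cells, adjusted p = 0.000845). Its mean was 4.28 ± 0.768 CPM with INK128 and 2.75 ± 0.701 CPM with doxorubicin, a difference of 0.665 ± 0.49 that did not pass (adjusted p = 0.301). With replicate 1 left out of every group it was 0.84 and passed (adjusted p = 0.0208). CCL5 overlaps AC015849.1 on the opposite strand, and the strand setting of the counting is not given in the sources used here.

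CXCL1 had 146, 9.31, 146 and 147 CPM with INK128 (1.86 ± 0.53, adjusted p = 0.0159). CXCL2 had 45.6, 2.52, 41.5 and 44.8 CPM (1.72 ± 0.61, adjusted p = 0.0411). CXCL6 averaged 0.376 ± 0.118 CPM, against 0.114 ± 0.0577 CPM (1.85 ± 0.57, adjusted p = 0.0236). These 3 calls were each lost without single replicates. For CXCL1 these were untreated replicates 1 and 2 (adjusted p = 0.0579 and 0.0672), for CXCL2 untreated replicates 1, 2 and 3 and INK128 replicates 1 and 3 (0.0888 to 0.121), and for CXCL6 untreated replicates 1 and 2 and INK128 replicates 2 and 3 (0.0598 to 0.117).

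CXCL5, the most abundant member, had 523, 30.5, 586 and 589 CPM with INK128, against 387.5, 287, 627 and 571 CPM in untreated cells (0.04 ± 0.28, adjusted p = 0.926). Library 2 gave a ratio of 0.1065 and the other 3 gave 0.935 to 1.35. CXCL3 had 31.4, 0.665, 30.05 and 30.8 CPM with INK128 (1.39 ± 0.62, adjusted p = 0.095), CCL20 7.83, 0, 6.79 and 6.73 CPM (1.865 ± 0.97, adjusted p = 0.145) and CCL2 81.75, 30.3, 69.75 and 65.6 CPM (0.68 ± 0.54, adjusted p = 0.331). In libraries 1, 2-2 and 3 these 3 genes were each higher with INK128 than in the untreated library of the same title, by ratios of 2.58 to 3.08 for CXCL3, 2.46 to 7.35 for CCL20 and 1.49 to 2.86 for CCL2.

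The number of genes called with INK128 depended on how library 2 was handled. With it left out 6 were called (CXCL3 joined, adjusted p = 0.0181), and with 2 and 2-2 kept apart 2 (CXCL8 and CCL5). None was called by edgeR with 2-2 left out, where CCL5 had an adjusted p of 0.0838 and CXCL8 of 0.0937, and 8, all but CXCL5, with replicate 1 left out of every group. With the replicate number as a block, CXCL3 had 1.285 (adjusted p = 0.013) and CCL20 1.70 (adjusted p = 0.0467), and 7 were called. The calls over all genes moved too. Higher were 4010 of 19550 genes in the main fit, 5791 of 20807 with replicate 1 left out of every group and 5359 of 19550 with the block. With library 2 left out 3925 of 19535 were higher, with 2 and 2-2 apart 4331 of 19440 and with 2-2 left out 3049 of 19645.

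Compared with doxorubicin, 6 of the 9 were lower with INK128 in A549, where 19.7% of all genes were called lower and 21.2% higher. CXCL1 (-2.435 ± 0.54, adjusted p = 0.00404), CXCL6 (-2.40 ± 0.46, adjusted p = 0.00179) and CXCL5 (-2.15 ± 0.29, adjusted p = 0.000247) were lower, as were CXCL8 (-2.17 ± 0.655, adjusted p = 0.0206), CXCL2 (-1.64 ± 0.60, adjusted p = 0.0461) and CCL2 (-1.50 ± 0.54, adjusted p = 0.045). The last 3 calls were lost without single replicates. Without doxorubicin replicate 1 the values were -1.40 for CXCL8, -0.97 for CXCL2 and -0.94 for CCL2 (adjusted p = 0.0851, 0.193 and 0.177). Without INK128 replicate 2 or 3 the adjusted p of the 3 genes were 0.0534 to 0.15, and without INK128 replicate 1 or doxorubicin replicate 3 those of CXCL2 and CCL2 were 0.0551 to 0.0725. CXCL3 and CCL20 passed without doxorubicin replicate 2 (-1.835 and -2.64, adjusted p = 0.0455 and 0.0461) and with the replicate block (adjusted p = 0.0109 and 0.0232). Without the libraries titled 2, 8 of the 9 were lower.

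Against palbociclib 5 of the 9 were lower with INK128, where 20.5% of all genes were called lower and 22.0% higher. CXCL1 had -2.06 ± 0.53 (adjusted p = 0.0089), CXCL5 -2.16 ± 0.295 (adjusted p = 0.000199) and CXCL6 -1.99 ± 0.46 (adjusted p = 0.00476). CXCL8 had -1.94 ± 0.65 (adjusted p = 0.0315) and CCL20 -2.53 ± 0.91 (adjusted p = 0.0429). Without palbociclib replicate 1 CXCL8 had -0.80 (adjusted p = 0.212), CCL20 -0.70 (adjusted p = 0.422) and CXCL1 -1.23 (adjusted p = 0.0324). Without any 1 of the INK128 replicates the adjusted p were 0.0518 to 0.109 for CXCL8 and 0.0728 to 0.135 for CCL20. In the block fit 8 of the 9, all but CCL5, were lower, with CXCL2, CXCL3 and CCL2 added (adjusted p = 0.0196, 0.0288 and 0.0128). These 3 also passed without palbociclib replicate 2 (adjusted p = 0.0321, 0.0449 and 0.0418), as did CCL2 without palbociclib replicate 3 (adjusted p = 0.0452). Without the libraries titled 2, 7 were lower. Over all genes, 5317 of 19550 were called lower in the block fit, against 4000 in the main fit. Without the libraries titled 2 they were 3987 of 19535.

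**Figure D3:**
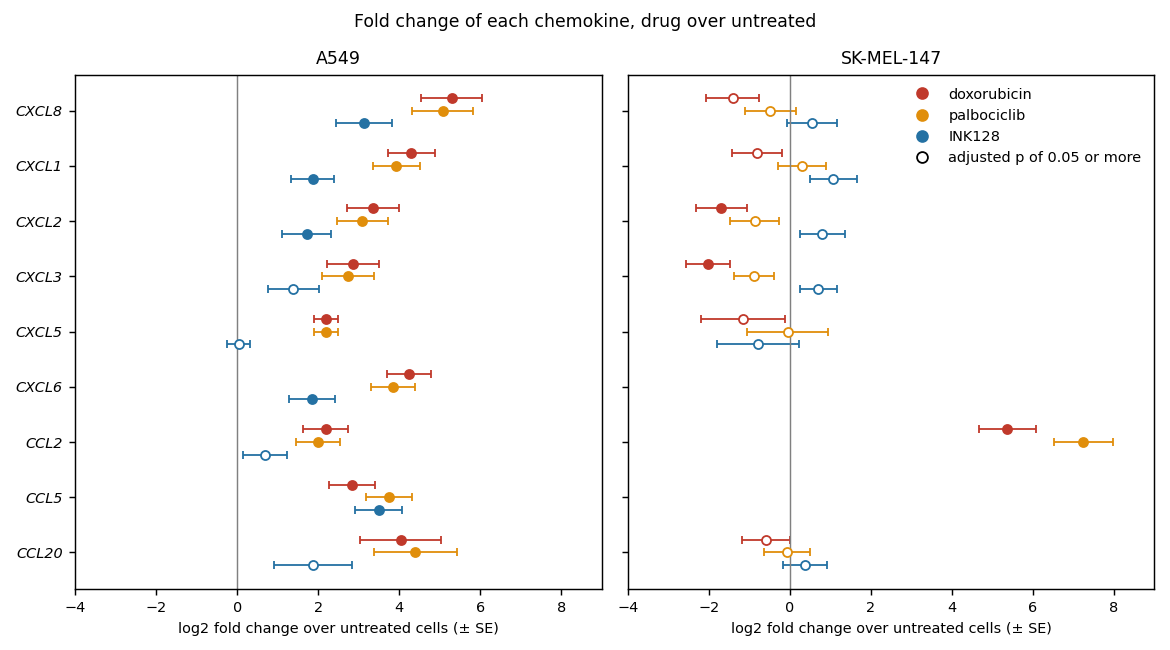
Log2 fold change of each chemokine over untreated cells with its SE, for doxorubicin, palbociclib and INK128 in A549 (left) and SK-MEL-147 (right); filled points had an edgeR adjusted p under 0.05. CXCL6 and CCL5, which did not pass the filter on low counts, and CCL2 with INK128, which rests on 2 counts, are not drawn for SK-MEL-147, where the filled points right of 0 are those of CCL2 (5.37 and 7.25).

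In SK-MEL-147 CCL2 rose after both senescence drugs, and none of the 6 CXC members was called higher. CXCL6 had 0 counts in all 16 libraries, which allows up to 0.0926 to 0.167 CPM per library, and CCL5 too few counts to pass the filter, so that 7 of the 9 genes were tested. With doxorubicin CCL2 was higher and CXCL2 and CXCL3 were lower, where 30.9% of 18516 genes were called higher and 28.9% lower. With palbociclib CCL2 alone was called, higher, where 29.7% of genes were called higher and 28.7% lower. The median log2 fold change of the 7 was -1.16 with doxorubicin and -0.07 with palbociclib, and 0.02 and 0.00 over all genes.

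CCL2, the monocyte chemokine, had 31.7, 26.2, 5.09 and 11.2 CPM in doxorubicin libraries 1 to 4 and 65.5, 98.95, 69.9 and 38.8 CPM in palbociclib libraries 1 to 4, against 0.941, 0.7135, 0.0587 and 0 CPM in untreated ones. All 8 drug libraries lay above all untreated ones, which held 57 counts of CCL2 together. The log2 fold change was 5.37 ± 0.70 with doxorubicin (adjusted p = 4.93e-06) and 7.25 ± 0.73 with palbociclib (adjusted p = 3.59e-07). Leaving out untreated replicate 1 gave 6.14 and 8.02.

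In the same libraries 10 fibroblast markers summed to 61.2 to 131 CPM with doxorubicin and 92.8 to 171 CPM with palbociclib, against 15.4 to 22.5 CPM in untreated cells. The proteoglycan gene LUM averaged 76.5, 100.5 and 17.7 CPM in these groups and the collagen gene COL1A1 22.8, 29.1 and 0.951 CPM. Of the 10 markers 2, 3 and 1 reached 1 CPM with doxorubicin, palbociclib and no drug, and DCN and THY1 were at most 0.0336 CPM. PDGFRB averaged 0.802, 2.26 and 0.2985 CPM, and COL1A2, PDGFRA and FAP were also higher on average with both drugs (0.157, 0.203 and 0.260 CPM with palbociclib, against 0.00720, 0.0215 and 0.0143 CPM). Mitochondrial counts were 3.503 to 5.61% with doxorubicin and 4.80 to 5.89% with palbociclib, against 2.38 to 3.24%. The part of these in the CCL2 result was not tested.

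The mean of CCL2 was higher after palbociclib than after doxorubicin, 68.3 ± 24.6 and 18.55 ± 12.5 CPM (SD, n = 4), and all palbociclib libraries lay above all doxorubicin ones. The log2 difference of 1.88 ± 0.53 did not pass (adjusted p = 0.134), in a comparison where 0.0594% of genes were called. With the replicate number as a block, which pairs these libraries, it was 2.12 (adjusted p = 0.0188). No member was called by edgeR without the block or by DESeq2, and 1, CCL2, had an unadjusted p under 0.05.

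CXCL8 had 5.01, 2.06, 1.05 and 0.755 CPM with doxorubicin and 10.7, 3.45, 1.49 and 1.36 CPM with palbociclib in SK-MEL-147, against 11.3, 5.03, 3.70 and 2.795 CPM in untreated cells, and the groups overlapped. The log2 fold change was -1.42 ± 0.65 with doxorubicin (adjusted p = 0.0708) and -0.48 ± 0.63 with palbociclib (adjusted p = 0.53). With replicate 1 of the drug group left out the values were -2.21 (adjusted p = 0.0119) and -1.525 (adjusted p = 0.0424). With all replicates, CXCL8 was also called lower with doxorubicin without the filter on low counts (adjusted p = 0.0156) and with these groups fitted alone (adjusted p = 0.0489).

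CXCL2 had 0.542, 0.480, 0.131 and 0 CPM with doxorubicin, below all untreated libraries (1.11, 0.778, 0.969 and 0.692 CPM; -1.69 ± 0.64, adjusted p = 0.0304). CXCL3 had 0.542, 0.172, 0 and 0.131 CPM with doxorubicin, below 0.827, 0.811, 0.7635 and 0.893 CPM in untreated cells (-2.03 ± 0.54, adjusted p = 0.00384). Both genes were scarce, with 34 counts of CXCL2 and 25 of CXCL3 in all with doxorubicin, against 120 and 111 in untreated cells. Doxorubicin libraries 3 and 4 held 0 or 4 counts of each, at or near the floor of 3 counts, so that the size of these falls is uncertain. The call of CXCL2 was lost without doxorubicin replicate 3 or 4 or untreated replicate 1 or 3 (adjusted p = 0.0575 to 0.083), and CXCL3 had -3.065 without doxorubicin replicate 1. With palbociclib they had -0.87 ± 0.61 and -0.88 ± 0.496 (adjusted p = 0.23 and 0.138), and in the fit with the replicate block CXCL2 had -1.02 (adjusted p = 0.0443).

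CXCL1 had 2.065, 0.995, 0.525 and 0.164 CPM with doxorubicin, 4.09, 2.71, 0.818 and 0.558 CPM with palbociclib and 2.57, 1.30, 1.09 and 1.35 CPM in untreated cells. Its values of -0.82 ± 0.61 and 0.29 ± 0.59 did not pass (adjusted p = 0.261 and 0.691), though without doxorubicin replicate 1 it had -1.56 (adjusted p = 0.0478). CXCL5 stayed at or under 3.88 CPM in all 16 libraries, and CCL20 at or under 0.776 CPM.

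CCL5 was counted 9, 11, 1 and 0 times in the doxorubicin libraries and 36, 7, 3 and 0 times in the palbociclib libraries, against 1, 0, 1 and 0 times in untreated ones. From the summed counts its level was 11.8 times that of untreated cells with doxorubicin (95% counting interval 2.89 to 104) and 29.1 times with palbociclib (7.60 to 247). These intervals, exact binomial ones, cover counting error alone, and most counts came from libraries 1 and 2.

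With INK128 CCL2 was nearly absent from SK-MEL-147. It had 0, 0.0311, 0.0357 and 0 CPM, 2 counts in all, against the 57 counts of untreated cells, a ratio of 0.0369 (95% counting interval 0.00436 to 0.139). The test called it lower (adjusted p = 0.0262), as 1 of 7 tested genes, where 28.9% of all genes were called lower and 29.8% higher. CCL2 passed the filter on low counts through the doxorubicin and palbociclib groups. With the INK128 and untreated groups fitted alone, 6 members were tested and CCL2 was not among them. The groups overlapped, because untreated replicate 4 also had 0 counts. Without untreated replicate 1 or 2 or INK128 replicate 1 or 4 the adjusted p was 0.0604 to 0.0986. The fibroblast markers summed to 7.55 to 23.7 CPM with INK128. CCL5 had 0 counts in all 4 libraries.

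CXCL8 had 7.997, 6.44, 12.9 and 6.57 CPM with INK128 (0.54 ± 0.62, adjusted p = 0.467), and CXCL1 4.51, 3.39, 3.03 and 2.605 CPM (1.07 ± 0.58, adjusted p = 0.124). CXCL3 had 1.58, 1.28, 1.36 and 1.30 CPM (0.70 ± 0.45, adjusted p = 0.195). All INK128 libraries lay above all untreated ones for CXCL1 and CXCL3, yet neither passed. With the replicate block, which pairs these libraries, CXCL1 had 1.12 (adjusted p = 0.0131) and CXCL5 -0.755 (adjusted p = 0.0485). With these groups fitted alone, CXCL1 and CXCL3 were called (adjusted p = 0.00765 and 0.0132).

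Against doxorubicin, CXCL8 (1.96 ± 0.66, adjusted p = 0.0209), CXCL1 (1.885 ± 0.61, adjusted p = 0.0171), CXCL2 (2.49 ± 0.63, adjusted p = 0.00376) and CXCL3 (2.725 ± 0.53, adjusted p = 0.000519) were higher with INK128 in SK-MEL-147 and CCL2 lower (adjusted p = 2.64e-06). Over all genes 24.8% were called higher and 24.0% lower. For each of these 4 CXC genes all INK128 libraries lay above all doxorubicin libraries. CXCL8 lost its call without doxorubicin replicate 3 or 4 or INK128 replicate 3 (adjusted p = 0.0585 to 0.0624), and CXCL1 without doxorubicin replicate 3 (adjusted p = 0.0518). Leaving out doxorubicin replicate 1 gave 2.75 for CXCL8, 2.63 for CXCL1 and 3.76 for CXCL3.

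Against palbociclib, CXCL2 (1.665 ± 0.595, adjusted p = 0.0268) and CXCL3 (1.58 ± 0.49, adjusted p = 0.0122) were higher with INK128 in SK-MEL-147 and CCL2 lower (adjusted p = 3.32e-07), where 26.8% of genes were called higher and 25.8% lower. CCL2 under INK128 had 2 counts against 2197 with doxorubicin and 6870 with palbociclib, ratios of 0.000849 (95% counting interval 0.000103 to 0.00307) and 0.000242 (2.93e-05 to 0.000875). CXCL2 lost its call without palbociclib replicate 3 or 4 or INK128 replicate 1 (adjusted p = 0.0789 to 0.0964) and had 2.33 without palbociclib replicate 1. Without that library CXCL8 also passed (2.07, adjusted p = 0.0106).

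**Figure D4:**
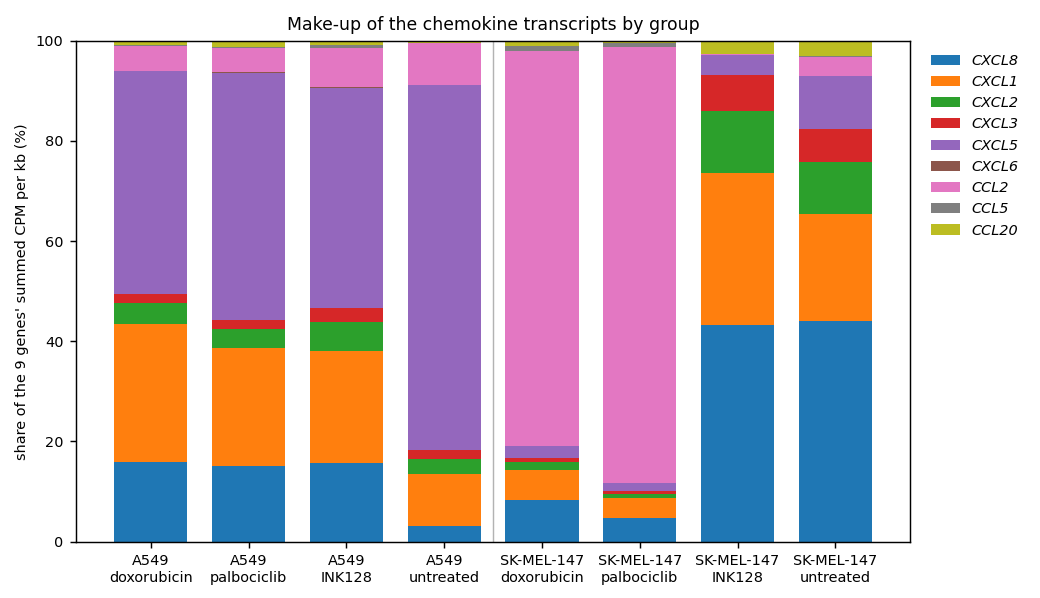
Share of each gene in the summed CPM per kb of exon of the 9 chemokines, in percent, for each group. All annotated exons of a gene are merged for its length, and bars are built from group means. CXCL5 takes the largest part in all A549 groups, from 43.95% to 72.8%, whereas CCL2 takes 78.9% and 87.15% of the sum in SK-MEL-147 after doxorubicin and palbociclib, and CXCL8 43.3% and 44.1% with INK128 and in untreated cells.

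Per kb of exon, which allows levels of different genes to be set roughly side by side, the 9 chemokines summed to 1907, 1735, 428 and 256 CPM per kb in A549 with doxorubicin, palbociclib, INK128 and no drug. The length merges all annotated exons of a gene. It was 1986, 1594 and 2538 bases for CCL2, CCL20 and CXCL5, whose longest transcripts held 947, 790 and 2489 stretches of 50 bases. Levels per kb of CCL2 and CCL20 can thus be too low beside CXCL5. For SK-MEL-147 the sums were 11.85, 39.5, 8.60 and 5.69 CPM per kb. CXCL5 had 849.6 and 858 CPM per kb in A549 with doxorubicin and palbociclib, CXCL1 526.5 and 408 CPM per kb, and CXCL8 304 and 262 CPM per kb. The order of groups by mean CPM was alike for CXCL8, CXCL1, CXCL2, CXCL3 and CXCL6 within A549: doxorubicin, palbociclib, INK128 and then untreated cells, and neighbouring groups overlapped in their libraries. All A549 libraries lay above all SK-MEL-147 libraries for CXCL1 and CXCL5. For CCL2, palbociclib-treated SK-MEL-147 (68.3 CPM) had a higher mean than untreated A549 (41.8 CPM), with overlapping libraries.

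The response differed between the lines. The effect of doxorubicin over untreated cells was lower in SK-MEL-147 than in A549 for 6 genes and higher for CCL2, in 1 fit of all 8 groups, where 11.3% of 21761 genes were called lower and 8.49% higher. The log2 differences of effect were -6.84 ± 1.05 for CXCL8, -5.25 ± 0.865 for CXCL1, -5.185 ± 0.92 for CXCL2, -5.01 ± 0.87 for CXCL3, -4.735 ± 1.27 for CCL20 and -3.48 ± 1.13 for CXCL5, and 3.07 ± 0.935 for CCL2 (adjusted p = 4.44e-05 to 0.0311). The call of CXCL5 was lost in 9 of the leave-one-out fits, those without any 1 A549 untreated replicate, A549 doxorubicin replicate 3, SK-MEL-147 untreated replicate 1 or 2 or SK-MEL-147 doxorubicin replicate 2, 3 or 4 (adjusted p = 0.0501 to 0.132). That of CCL2 was lost without A549 doxorubicin replicate 2 (2.78, adjusted p = 0.0546). Without A549 doxorubicin replicate 1 the differences were -6.05 for CXCL8, -4.49 for CXCL2, -4.32 for CXCL3, -3.63 for CCL20 and 3.66 for CCL2. Without SK-MEL-147 doxorubicin replicate 1 they were -7.64 for CXCL8, -6.00 for CXCL1, -6.06 for CXCL3 and -5.00 for CXCL5, and without SK-MEL-147 untreated replicate 1 -6.09 for CXCL8, -2.59 for CXCL5 and 4.04 for CCL2. With libraries 2 and 2-2 apart, and likewise without 2-2, CXCL5 (adjusted p = 0.0727 and 0.14) and CCL20 (adjusted p = 0.127 and 0.159) lost their calls, as did CXCL5 with replicate 1 left out of every A549 group (adjusted p = 0.0722). DESeq2 did not call CXCL5 (adjusted p = 0.0506) and called CXCL6 (adjusted p = 0.046), which had 0 counts in SK-MEL-147. The median of all genes in this comparison was -0.103, and 0.06 with scaling by library size alone, under which 58.6% of calls were higher in place of 42.9%, and the same number of members, 7, was called. Without the A549 libraries titled 2, 7 members had a line difference with doxorubicin and 6 with palbociclib.

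For palbociclib, given at unlike doses to the lines, the effect was lower in SK-MEL-147 for CXCL8 (-5.68 ± 1.013), CCL20 (-4.61 ± 1.245), CXCL2 (-4.10 ± 0.88), CXCL1 (-3.78 ± 0.83) and CXCL3 (-3.74 ± 0.815), and higher for CCL2 (5.12 ± 0.94; adjusted p = 0.000274 to 0.0102 for the 6). Over all genes 10.8% were called lower and 8.37% higher. With library size alone 63.7% of calls were higher in place of 43.7%, and 6 members were called. CXCL5 was called in the block fit (-2.35, adjusted p = 3.73e-05) and without SK-MEL-147 palbociclib replicate 1 (-3.58, adjusted p = 0.0318). Without A549 palbociclib replicate 1 the differences were -4.51 for CXCL8, -2.93 for CXCL1, -3.07 for CXCL2, -2.63 for CXCL3, -2.75 for CCL20 and 6.04 for CCL2, all called. Without SK-MEL-147 palbociclib replicate 1 they were -6.77 for CXCL8, -4.465 for CXCL1 and -4.80 for CXCL2, and without SK-MEL-147 untreated replicate 1 -4.93 for CXCL8 and 6.09 for CCL2. With libraries 2 and 2-2 apart, CXCL3 and CCL20 lost their calls (adjusted p = 0.0554 and 0.136), and without 2-2 2 genes, CXCL8 and CCL2, were called.

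For INK128, also given at unlike doses, edgeR called no line difference among the 9, with 2 at an unadjusted p under 0.05, and DESeq2 called 1, where 5.42% of genes were called lower and 6.51% higher. CXCL8 had -2.61 ± 0.96 (adjusted p = 0.078) and CCL2, with its 2 counts in SK-MEL-147, an adjusted p of 0.0648. Both were called in the block fit (adjusted p = 0.00709 and 0.0133) and without the A549 libraries titled 2 (adjusted p = 0.0431 and 0.034). CCL2 was also called without SK-MEL-147 untreated replicate 3 or 4 (adjusted p = 0.0461 and 0.0353).

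The lines already differed without a drug. All 9 genes were lower in untreated SK-MEL-147 than in untreated A549, where 33.4% of all genes were called lower. The difference was -8.23 ± 0.89 for CXCL5, which averaged 1.53 ± 1.54 CPM in melanoma cells and 473 ± 92.5 CPM in lung cells, -6.56 ± 0.75 for CCL2, -4.40 ± 0.595 for CXCL1, -3.65 ± 0.58 for CXCL2 and -3.55 ± 0.535 for CXCL3, with no overlap of libraries in these 5. CCL20 had -2.53 ± 0.82. CXCL8 averaged 5.70 ± 3.82 CPM in untreated SK-MEL-147, against 17.7 ± 3.34 CPM (-1.59 ± 0.67, adjusted p = 0.0401). It lost its call without A549 untreated replicate 1 or 3 or SK-MEL-147 untreated replicate 2, 3 or 4 (adjusted p = 0.0651 to 0.0937). CXCL6, with 0 counts against 12, was at least 4.48-fold higher in untreated A549 (a floor of 3 counts over the group). CCL5 had 2 counts against 43, a ratio of 0.0415 (95% counting interval 0.00487 to 0.159). Without SK-MEL-147 untreated replicate 1 the difference was -9.01 for CXCL5, -7.41 for CCL2 and -2.22 for CXCL8. With libraries 2 and 2-2 apart, CXCL6, CXCL8 and CCL20 lost their calls (adjusted p = 0.144, 0.101 and 0.0925), and without 2-2 5 genes were called. With library size alone CXCL8 was not called (adjusted p = 0.0531).

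Lists of related genes were read against the shares of all genes called with doxorubicin, palbociclib and INK128. For A549 these were 22.4, 22.2 and 20.5% higher and 20.9, 21.1 and 19.7% lower, and for SK-MEL-147 30.9, 29.7 and 29.8% higher and 28.9, 28.7 and 28.9% lower. Of 30 further chemokine genes 10 were tested in A549, of which 9 were higher with doxorubicin and 9 with palbociclib and none lower, and 5 in SK-MEL-147, of which 4 were higher with each drug. The others did not pass the filter on low counts. A gene with no counts in untreated cells can pass it through the drug groups, as CXCL11 and CCL4 in A549 did, so that these counts are a description of the genes that passed. PPBP, a platelet chemokine of the same chromosome 4 cluster, averaged 7.88 ± 4.22 CPM with doxorubicin and 0.115 ± 0.0850 CPM in untreated A549 (6.205 ± 0.63, adjusted p = 2.3e-05). CXCL11 and CCL4 had 44 and 40 counts with doxorubicin in A549 and 0 in untreated cells, at least 15.3-fold and 13.9-fold higher. In SK-MEL-147 the interferon-inducible CXCL10 averaged 0.760 ± 0.458 CPM with doxorubicin and 1.73 ± 2.29 CPM with palbociclib, against 2 counts in untreated cells, ratios of 50.7 (95% counting interval 13.6 to 425) and 118 (32.2 to 982). With INK128 1 gene was higher and 1 lower in A549, CX3CL1 (2.32 ± 0.51, adjusted p = 0.00436) and CCL26 (-2.05 ± 0.35, adjusted p = 0.00104). In SK-MEL-147 edgeR called 0 with INK128 (0 at an unadjusted p under 0.05) and DESeq2 1.

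Of 23 chemokine receptor genes 7 were tested in A549, with 4 higher after doxorubicin and 4 after palbociclib, and 5 in SK-MEL-147, with 3 higher after each, shares of 57.1% and 60.0% of those tested. The filter on low counts also favours genes that a drug group raises, so these counts and shares describe the genes that passed. With INK128 edgeR called 0 in A549 (1 at an unadjusted p under 0.05, 1 by DESeq2) and 0 in SK-MEL-147 (0 and 0). ACKR3, a receptor that binds and removes CXCL12, averaged 27.6 ± 18.4 and 29.2 ± 17.65 CPM with doxorubicin and palbociclib in A549 and 3.19 ± 2.74 CPM in untreated cells (3.14 ± 0.83 and 3.23 ± 0.83, adjusted p = 0.00949 and 0.0083). In SK-MEL-147 it averaged 15.35 ± 19.25 and 10.55 ± 10.8 CPM, against 0.195 ± 0.0987 CPM (6.195 ± 1.31 and 5.66 ± 1.30, adjusted p = 0.000615 and 0.00128). CXCR2, the receptor of the CXC members, averaged 0.494 ± 0.191 and 0.468 ± 0.188 CPM with these drugs in SK-MEL-147, against 0.0865 ± 0.152 CPM (adjusted p = 0.0279 and 0.0355). Its untreated mean lay under the floor of a single SK-MEL-147 library (0.0926 to 0.167 CPM).

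Of 22 upstream cytokine and receptor genes, among them the antagonist IL1RN, 17 were tested in A549, with 8, 7 and 4 higher and 2, 2 and 2 lower after doxorubicin, palbociclib and INK128. In SK-MEL-147 12 were tested, with 6, 6 and 5 higher and 2, 3 and 2 lower. The shares higher in A549 were 47.1, 41.2 and 23.5%, the last near that of all genes. IL1B, which encodes interleukin 1 beta, averaged 128 ± 25.9, 117 ± 20.6 and 138 ± 16.4 CPM in SK-MEL-147 with doxorubicin, palbociclib and INK128 and 9.785 ± 4.88 CPM in untreated cells (3.64 ± 0.29, 3.51 ± 0.29 and 3.78 ± 0.29). In A549 it averaged 11.65 ± 7.995, 10.5 ± 10.9 and 2.39 ± 3.16 CPM, against 0.147 ± 0.0726 CPM (6.44 ± 1.33, 6.28 ± 1.33 and 4.13 ± 1.34; adjusted p at most 0.0287 for IL1B in both lines). The line difference of IL1B did not pass with doxorubicin (-2.93 ± 1.24, adjusted p = 0.103). IL6, another secreted cytokine, averaged 8.66 ± 5.93, 9.09 ± 10.9 and 2.00 ± 0.598 CPM in A549 and 0.152 ± 0.1095 CPM in untreated cells (adjusted p = 0.000966, 0.000899 and 0.0143). The untreated means of IL1B and IL6 in A549 lay near the floor of a library (0.09 to 0.107 CPM), so that the size of these changes is uncertain. The SD exceeded the mean for IL1B with palbociclib and INK128 and for IL6 with palbociclib. Line differences passed for IL6 with doxorubicin (-3.77 ± 1.13, adjusted p = 0.0184) and palbociclib (-3.99 ± 1.13, adjusted p = 0.0139). So did those of IL1A (-5.98 ± 0.85, adjusted p = 1.97e-05 and -5.45 ± 0.87, adjusted p = 8.37e-05). Of the 17 genes, 3 had a lower and 4 a higher effect in SK-MEL-147 with doxorubicin. These were 17.6 and 23.5%, beside 11.3 and 8.49% of all genes. With palbociclib 4 were lower and 3 higher.

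Genes of the NF-kB and C/EBP pathways included 6, 6 and 4 of 21 higher and 2, 2 and 4 lower in A549 after doxorubicin, palbociclib and INK128, and 8, 6 and 7 of 20 higher and 6, 5 and 3 lower in SK-MEL-147. The shares higher, 28.6, 28.6 and 19.0% for A549 and 40.0, 30.0 and 35.0% for SK-MEL-147, stood near or not far above those of all genes, and no result about the list is read from them. TNFAIP3, an NF-kB target that feeds back on the pathway, averaged 101 ± 22.4 and 69.2 ± 35.6 CPM in A549 with doxorubicin and palbociclib and 10.8 ± 1.73 CPM in untreated cells (3.23 ± 0.365 and 2.68 ± 0.36, adjusted p = 4.66e-05 and 0.000132). In SK-MEL-147 it averaged 1.96 ± 0.465 and 2.875 ± 0.535 CPM, against 5.90 ± 4.68 CPM (-1.65 ± 0.38 and -1.10 ± 0.37, adjusted p = 0.00124 and 0.0172). It thus rose in 1 line and fell in the other, and its line difference passed with doxorubicin (-5.00 ± 0.56, adjusted p = 9.08e-07) and palbociclib (-3.92 ± 0.55, adjusted p = 1.82e-05). NFKBIZ, a nuclear co-factor of NF-kB, rose in A549 with all 3 drugs (3.18 ± 0.31, 2.515 ± 0.31 and 2.54 ± 0.31; adjusted p at most 0.000177). NFKB1, which encodes the p105 precursor, fell in SK-MEL-147 to 30.9 ± 5.35 and 29.4 ± 2.83 CPM with doxorubicin and palbociclib, against 74.9 ± 3.76 CPM in untreated cells (adjusted p = 7.92e-06 and 5.6e-06).

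Of the 8 AP-1 genes 5, 5 and 1 were higher and 1, 1 and 0 lower in A549 after doxorubicin, palbociclib and INK128, and 4, 3 and 4 higher and 3, 3 and 0 lower in SK-MEL-147. With so few genes, no result about the list is read from these counts. FOSL1, a FOS-family subunit, was lower after doxorubicin and palbociclib in both lines, with log2 fold changes of -1.39 ± 0.28 and -1.73 ± 0.28 for A549 and -1.125 ± 0.17 and -1.24 ± 0.17 for SK-MEL-147 (adjusted p at most 0.00199). ATF3, a stress-induced subunit, was higher with doxorubicin in A549 (1.95 ± 0.30, adjusted p = 0.00033) and in SK-MEL-147 (2.17 ± 0.39, adjusted p = 0.000162). Other AP-1 genes differed between the lines. With doxorubicin the effect was lower in SK-MEL-147 for FOS (-4.055 ± 0.805, adjusted p = 0.000696), FOSB (-3.015 ± 0.57, adjusted p = 0.000412) and JUN (-1.11 ± 0.27, adjusted p = 0.0047). It was higher for JUND (0.93 ± 0.31, adjusted p = 0.0348). Over all genes 11.3% were called lower and 8.49% higher.

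Of 10 genes that control the decay of chemokine mRNAs, 3, 2 and 2 were higher and 3, 3 and 2 lower in A549. The counts for SK-MEL-147 were 4, 4 and 2 higher and 5, 5 and 4 lower, in the same order of drugs. The A549 counts, 2 or 3 of 10 in each direction, were near the shares of all genes. ZFP36, which speeds the decay of mRNAs with AU-rich elements, rose with all 3 drugs in A549 (1.011 ± 0.175, 1.08 ± 0.18 and 0.72 ± 0.175; adjusted p at most 0.00741) and with doxorubicin and INK128 in SK-MEL-147 (0.985 ± 0.16 and 1.59 ± 0.16; adjusted p at most 5.96e-05). KHSRP, which binds such elements, was lower with every drug in both lines, from -0.36 ± 0.11 with INK128 in A549 to -1.24 ± 0.12 with doxorubicin in SK-MEL-147 (adjusted p at most 0.0268).

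By Pearson's r of log2(mean CPM + 0.5) over the 8 group means, among 11039 protein-coding genes with at least 10 CPM in 1 group or more, TSPAN2 (0.992), KIFAP3 (0.989) and PI3 (0.9875) were most like CXCL8. IGDCC4 (0.9965), LCN2 (0.993) and CYP3A5 (0.993) were most like CXCL1, and PI3 (0.998), ITGA11 (0.9965) and PDZK1IP1 (0.990) most like CCL20. LCN2 averaged 476, 372, 63.3 and 17.2 CPM in A549 with doxorubicin, palbociclib, INK128 and no drug. PRCP (0.989) and LAPTM4A (0.9875) were among the genes most like CCL2, and SMARCD3 (0.985), TFPI (0.984) and ITGAX (0.9795) most like CCL5. These 8 points share 2 lines and 4 treatments, so that r is given as a description.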

How the data were processed

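Read counts per gene were deposited by the authors for 32 libraries of 2 lines. Per the submitters' processing notes, reads were aligned with STAR 2.7.10a to GRCh38.p13 and counted with featureCounts. The annotation, strand setting and handling of reads with several matches are not given in the sources used here, and reads from like transcripts or overlapping genes can be split or lost. The counts as deposited were tested with edgeR 4.0.16 (R 4.3.3; trimmed-mean scaling, filterByExpr, quasi-likelihood F tests), per line over its 4 groups, and over all 8 groups for line differences. P-values were adjusted by Benjamini-Hochberg over all genes, and SE is the log2 fold change over the square root of F. A549 libraries 2 and 2-2 were added. CPM are counts over effective library sizes of 1 scaling of all 32 libraries. A count of 0 allows up to 3 counts, 0.09 to 0.107 CPM in an A549 library; intervals and floors cover counting error only.

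Named genes beyond the 9 were the 3 largest called changes per direction of each list; some items are not reported here. Members and lists were chosen with earlier results of these data known. Alternatives were other scaling, no filter, DESeq2 1.42.0, a replicate block, fits of the compared groups alone, other handling of libraries 2 and 2-2, and leaving out replicates. Same-numbered replicates deviated together in every A549 comparison and in 4 of the 6 SK-MEL-147 ones (every correlation over 0.1), so that the block is given beside those results. The fits were tested on simulated data with 200 changed genes.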

Additional observations from a re-analysis of the deposited data

Results flagged for a closer look

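The effect of doxorubicin over untreated cells differed between SK-MEL-147 and A549 by the interaction test for 7 genes, with log2 differences of -6.843 for CXCL8, -5.251 for CXCL1, -5.185 for CXCL2, -5.014 for CXCL3, -4.735 for CCL20, -3.476 for CXCL5 and 3.068 for CCL2. For palbociclib it differed for 6 genes, by -5.683 for CXCL8, -4.613 for CCL20, -4.097 for CXCL2, -3.784 for CXCL1, -3.744 for CXCL3 and 5.121 for CCL2, at a dose of 1 uM in SK-MEL-147 and 5 uM in A549. With doxorubicin the call of CXCL5 was lost with DESeq2 (adjusted p = 0.0506) and in the leave-one-out fits given above.

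In SK-MEL-147 with doxorubicin the highest library, replicate 1, had 2.099 CPM of CXCL5 and stood far from the other 3 by Dixon's criterion. It was the 1 value so marked among 31 sets of 4 libraries, where chance marks about 1 in 20. Each set was a gene in a SK-MEL-147 group, and the A549 groups were not among them. CXCL5 was also highest in replicate 1 in the other SK-MEL-147 groups, at 3.279 (untreated), 3.882 (palbociclib) and 2.029 CPM (INK128).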

How the results depend on the processing

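Of 1101 values of single genes with 1 replicate left out, 985 kept their direction and side of the threshold, 64 lost and 13 gained a call and 39 changed sign. DESeq2 kept 128 of 132, the replicate block 103 of 123 with 19 gained, and the fits without library 2-2 50 of 90 with 39 lost, where each A549 group rests on replicates 1 and 3 and the low library 2. The cause of these changes was not tested for any setting. In counts of called genes, leaving out 2-2 gave 2 for doxorubicin, 3 for palbociclib and 0 for INK128 against untreated A549, 0 and 0 for INK128 over doxorubicin and palbociclib, 2 for the palbociclib line difference and 5 between untreated lines. With 2 and 2-2 apart, INK128 gave 2 over untreated A549, 3 over doxorubicin and 1 over palbociclib. With replicate 1 out of every A549 group INK128 gave 8, where 5791 of 20807 genes were called higher, against 4010 of 19550 in the main fit. Without the filter there were 8 for INK128 over palbociclib in A549, and in SK-MEL-147 5 with doxorubicin, 2 with palbociclib and 1 between these drugs, and 2 INK128 line differences. The fit of the compared groups alone gave 2 for palbociclib and 2 for INK128 against untreated SK-MEL-147. The INK128 line differences were 1 by DESeq2 and 2 without library 2.

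The replicate block gave 8 for INK128 over palbociclib in A549, for SK-MEL-147 6 with doxorubicin, 2 for palbociclib, 3 for INK128 and 1 between palbociclib and doxorubicin, 5 for INK128 over palbociclib there and 2 INK128 line differences. In SK-MEL-147 replicate numbers did not pair doxorubicin with untreated libraries or INK128 with palbociclib ones (lowest correlations 0.0770 and 0.0670). The block, nested in the line, gives no value for the untreated lines. Over the whole table it called more genes too, 12283 against 11079 of 18516 with doxorubicin in SK-MEL-147. Between palbociclib and doxorubicin, genes called over the whole table were 11 by edgeR, 459 by DESeq2 and 341 with the block in SK-MEL-147, and 0, 31 and 0 in A549.

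Without 1 replicate, the counts of called genes in A549 were 9 to 9 with doxorubicin, 8 to 9 with palbociclib, 2 to 4 with INK128, 0 to 0 between palbociclib and doxorubicin, 3 to 8 for INK128 over doxorubicin and 3 to 8 over palbociclib. In SK-MEL-147 they were 2 to 5, 1 to 2, 0 to 1, 0 to 0, 4 to 5 and 3 to 4 in the same order, with CCL5 passing the filter and among the called genes in some of these fits. Line differences were 6 to 7 for doxorubicin, 6 to 7 for palbociclib and 0 to 1 for INK128, and 8 to 9 genes differed between untreated lines.

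The log2 value of CXCL5 with INK128 over untreated A549, 0.039, was -0.024 without the filter, -0.021 with the block, -0.085 with 2 and 2-2 apart, -0.091 without 2-2 and -0.14 without replicate 1 of every group. For palbociclib over doxorubicin in A549, CXCL5 was -0.02 with library size alone and -0.076 without replicate 1 of every group, where CCL20 was -0.388 and CCL5 with INK128 over palbociclib 0.649. Leaving out 1 replicate changed the sign of further values that were not called: in A549, CXCL5 with INK128 over untreated cells (-0.15 to 0.263), CCL5 with INK128 over palbociclib (-0.619 to 0.68) and, for palbociclib over doxorubicin, CXCL1 (-1.244 to 0.109), CXCL2 (-1.312 to 0.442), CXCL3 (-1.259 to 0.576), CXCL5 (-0.226 to 0.207), CXCL8 (-1.407 to 0.587), CCL2 (-1.12 to 0.417), CCL5 (-0.048 to 1.281) and CCL20 (-1.506 to 1.488). In SK-MEL-147 these were, with palbociclib over untreated cells, CXCL1 (-0.331 to 0.63), CXCL5 (-1.161 to 0.626), CXCL8 (-1.525 to 0.06, called without palbociclib replicate 1) and CCL20 (-0.325 to 0.209), and CCL20 with INK128 (-0.294 to 0.698). Between drugs they were CXCL5 (-0.01 to 2.632) and CXCL8 (-0.113 to 1.736) for palbociclib over doxorubicin, CXCL5 (-0.447 to 1.882) for INK128 over doxorubicin, and CXCL5 (-1.554 to 0.366) and CCL20 (-0.209 to 0.765) for INK128 over palbociclib. The line differences of CCL5 ran over -0.371 to 0.892 for doxorubicin and -1.046 to 1.589 for palbociclib. With 3 or 4 replicates and a low library in each A549 group, changes of genes at a few CPM are the least certain, as are all values of CXCL6 and CCL5 in SK-MEL-147.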
